A study of Rattus norvegicus with 59 samples.

Results

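The fat cell markers *Ucp1*, *Cidea*, *Adipoq* and *Fabp4* were followed on every array of a rat kidney series. All probes that the platform annotation gives to these symbols were taken, as a check for fat attached to the kidneys, and each symbol has 1 probe, so they are 4 of 13337 named genes and 4 of 22523 probes. The symbols were chosen by their measured levels over ages, treatments and single arrays in an earlier look at these data, so those levels are given as descriptions without a test. The comparison of females with males was not used in the choice, and the 4 genes were tested there. The levels on single arrays that helped the choice enter that test too, so its p-values are not free of the choice.

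The kidneys came from 59 rats of the Fawn-Hooded Hypertensive (FHH) strain, an inbred strain that develops high blood pressure and kidney damage, with 1 array per rat and 12 groups. Offspring of dams given pyrrolidine dithiocarbamate (PDTC, labelled as an NF-kB inhibitor) in the drinking water at 150 mg/L were set against untreated FHH offspring of the same age and sex. The exposure was set to run from 2 weeks ahead of birth until the pups were 4 weeks old. Kidneys of 2 days and 2 weeks were thus taken during it, and adult kidneys long after it. At 2 days there were 4 PDTC females, 4 PDTC males, 5 untreated females and 5 untreated males. At 2 weeks there were 6 PDTC females, 4 PDTC males, 5 untreated females and 6 untreated males, and among adults 5 rats in each group, the females at 42 weeks and the males at 36 weeks. All rats were FHH, so no strain without the disease was among them, and adult sex cannot be told apart from the difference in age. The labels say neither how the kidneys were cleared of surrounding tissue nor which rats were littermates, so p-values measure the spread between these rats only.

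Brown fat cells burn lipid for heat through a proton leak in their mitochondria, and in newborn rodents depots of such cells lie close to several organs, the kidney among them. White fat cells store lipid and secrete hormones. *Ucp1* encodes the mitochondrial uncoupling protein that carries the proton leak and is the classic marker of brown and beige fat cells, and *Cidea* encodes a lipid droplet protein that is abundant in rodent brown fat. *Adipoq* encodes adiponectin, a hormone secreted by both kinds of fat cell. *Fabp4* encodes a fatty acid binding protein of fat cells that is also made by macrophages and by the endothelium of small vessels. In whole kidneys, fewer cells of a type and less RNA per cell cannot be told apart.

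Promoter windows are shown so that their letters can be compared. Whether these letters bear on the levels across arrays was not tested. RefSeq sequence of build GRCr8 was available for 3 of the 4 genes, from 250 bases before to 50 bases after the start of transcription, and each is written 5′ to 3′ on the strand of its gene. Capitals mark matches to the motifs searched on both strands. The *Ucp1* window is chr19:41721372-41721671 (minus strand), the *Cidea* window chr18:63164567-63164866 (plus strand) and the *Adipoq* window chr11:91240120-91240419 (minus strand).
Ucp1: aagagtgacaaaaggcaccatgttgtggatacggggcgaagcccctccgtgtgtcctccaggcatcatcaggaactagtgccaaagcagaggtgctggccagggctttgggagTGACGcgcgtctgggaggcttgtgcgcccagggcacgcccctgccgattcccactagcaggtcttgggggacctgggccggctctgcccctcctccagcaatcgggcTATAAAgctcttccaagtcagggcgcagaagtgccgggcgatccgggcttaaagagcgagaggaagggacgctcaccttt
Cidea: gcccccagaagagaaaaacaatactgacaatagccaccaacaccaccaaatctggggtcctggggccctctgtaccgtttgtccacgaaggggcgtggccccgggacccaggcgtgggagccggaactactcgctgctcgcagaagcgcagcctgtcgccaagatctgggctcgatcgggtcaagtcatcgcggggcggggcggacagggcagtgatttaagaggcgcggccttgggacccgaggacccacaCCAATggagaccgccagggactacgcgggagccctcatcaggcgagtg
Adipoq: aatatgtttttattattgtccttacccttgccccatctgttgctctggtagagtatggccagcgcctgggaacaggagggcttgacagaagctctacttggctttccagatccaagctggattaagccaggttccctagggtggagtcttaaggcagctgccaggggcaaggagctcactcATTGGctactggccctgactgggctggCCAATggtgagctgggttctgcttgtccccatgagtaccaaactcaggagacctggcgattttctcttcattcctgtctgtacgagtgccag
Of 5 motifs searched, which did not overlap one another in these windows, the core promoter box TATAAA was found in *Ucp1*, its first base 30 bases before the start. The cAMP response half-site TGACG lay 137 bases before the start of the same gene. CCAAT lay in *Adipoq* 42 bases before the start, and on the opposite strand, where it reads ATTGG in the line above, 69 bases before it. In *Cidea* a CCAAT began 2 bases after the start base. These letters are common: 14.2% of 33469 rat promoters of the same length held TATAAA, 21.2% TGACG and 37.5% CCAAT. The windows held neither TTGCNNAA (the letters of a C/EBP site), found in 10.6% of promoters, nor AGGTCA (a nuclear receptor half-site), found in 16.2%. No motif was shared by all 3 windows.

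Levels are log2 normalized intensities, and a probe counts as above background on an array where its signal passed that array's background at a one-sided p of 0.05. On each array 9139 to 12488 probes were above background (10665 to 12488 in pups, 9139 to 10864 in adults). The labelled tissue matched its markers: of 9 measured genes of kidney epithelium, among them the nephrin gene *Nphs1* and the uromodulin gene *Umod*, 7 were above background on all 59 arrays and the other 2 on some. The pups lay on slides 1 to 6 except untreated male 6 of 2 weeks, which lay on slide 8 with adults, and the adults on slides 7 to 10. Several arrays stood apart from their groups in the fat genes, namely PDTC females 1 and 2, PDTC male 1 and untreated female 3 at 2 days, untreated male 4, PDTC male 4 and PDTC female 5 on slide 5 at 2 weeks, and PDTC female 4 among the adults. Leaving out such arrays moved several differences by over 1.5 times, and values from some of those fits are given beside them.

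*Ucp1* was near background in most kidneys of 2 days, abundant in every kidney of 2 weeks and below background in all adult kidneys but 1. At 2 days it was above background on 4 of 8 PDTC and 2 of 10 untreated arrays. PDTC females 1 to 4 had levels of 10.75, 9.32, 7.61 and 4.56, and PDTC males 1 to 4 had 7.22, 4.83, 4.77 and 4.64. Untreated females 1 to 5 had 4.53, 4.98, 10.47, 4.87 and 4.68, and untreated males 1 to 5 had 4.67, 5.69, 4.61, 4.61 and 4.61. Single newborns of both treatments thus reached the levels of 2 weeks, and the groups overlapped over nearly their whole range. At 2 weeks *Ucp1* was above background on all 10 PDTC arrays, with a lowest, median and highest level of 8.41, 10.12 and 13.41, and on all 11 untreated arrays, with 9.95, 11.13 and 13.54. The treatments overlapped there too, with the 4 lowest levels all in PDTC kidneys. In adults 1 of 10 PDTC arrays and 0 of 10 untreated arrays were above background. The PDTC array was female 4 at 8.94, while the other PDTC adults lay between 4.57 and 4.94 and the untreated adults between 4.45 and 4.94.

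**Figure D1:**
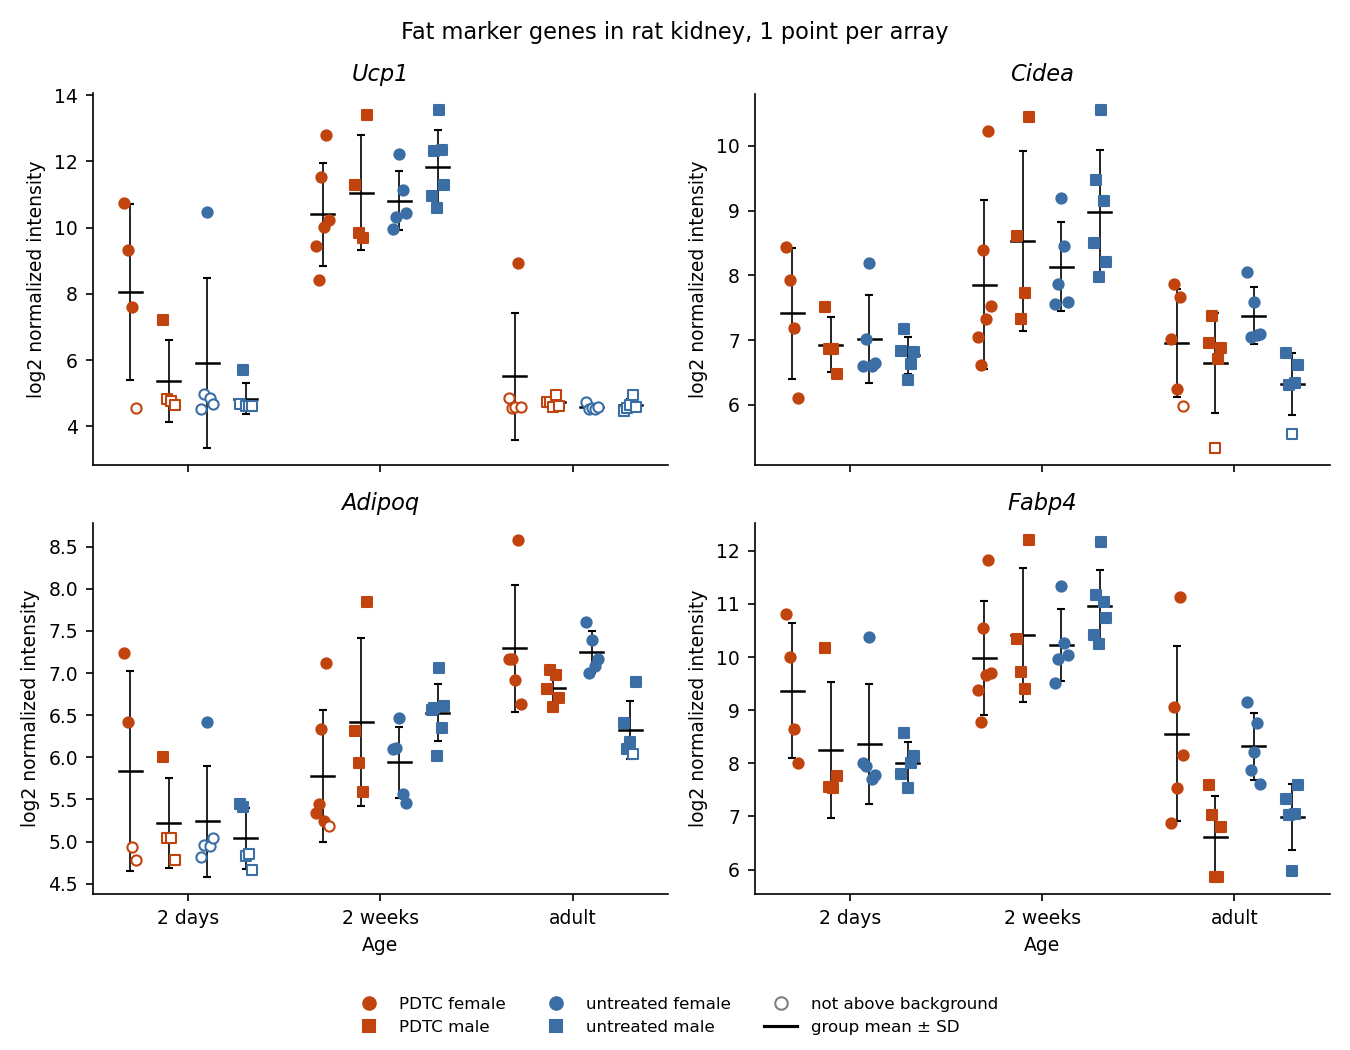
Log2 normalized intensity of *Ucp1*, *Cidea*, *Adipoq* and *Fabp4* (vertical axes) by age, with 1 point per array, PDTC in orange and untreated in blue, females as circles, males as squares, open points not above background, and bars for the group mean ± SD. *Ucp1* lay between 8.41 and 13.54 on all 21 arrays of 2 weeks and at or below 4.94 on all adult arrays but PDTC female 4, at 8.94.

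*Cidea* was above background on every pup array. At 2 days its lowest, median and highest levels were 6.11, 7.03 and 8.44 in PDTC kidneys, against 6.38, 6.73 and 8.19 in untreated kidneys. At 2 weeks they were 6.62, 7.63 and 10.45 in PDTC kidneys, against 7.56, 8.46 and 10.55 in untreated kidneys. In adults they were 5.33, 6.92 and 7.87 in PDTC kidneys, where 8 of 10 arrays were above background, against 5.55, 6.92 and 8.05 in untreated kidneys, where 9 of 10 were. The ranges of the treatments overlapped at each age. Unlike *Ucp1*, *Cidea* had a measurable level in most adult kidneys and in the 12 newborn kidneys whose *Ucp1* was not above background, where it lay between 6.11 and 7.02.

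*Adipoq* was above background on 3 of 8 PDTC and 3 of 10 untreated arrays at 2 days, 9 of 10 and 11 of 11 at 2 weeks, and 10 of 10 and 9 of 10 in adults. Its lowest, median and highest levels at 2 days were 4.78, 5.04 and 7.24 in PDTC kidneys, against 4.66, 4.96 and 6.42 in untreated kidneys. At 2 weeks they were 5.19, 5.76 and 7.84 in PDTC kidneys, against 5.46, 6.35 and 7.06 in untreated kidneys. In adults they were 6.60, 6.95 and 8.58 in PDTC kidneys, against 6.04, 6.94 and 7.60 in untreated kidneys. Of the 4 genes it was the one whose median was highest in adults.

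*Fabp4* was above background on all 59 arrays. Its lowest, median and highest levels at 2 days were 7.53, 8.33 and 10.81 in PDTC kidneys, against 7.53, 7.98 and 10.38 in untreated kidneys. At 2 weeks they were 8.78, 9.72 and 12.21 in PDTC kidneys, against 9.52, 10.41 and 12.16 in untreated kidneys. In adults they were 5.85, 7.28 and 11.13 in PDTC kidneys, against 5.97, 7.60 and 9.15 in untreated kidneys. Its medians thus stood in the order 2 weeks, 2 days, adults in both treatments. The ranges of the ages overlapped, except that untreated kidneys of 2 weeks, at 9.52 or more, lay above untreated adults, at 9.15 or less.

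The first fortnight brought higher levels of all 4 genes in untreated kidneys. The difference of 2 weeks minus 2 days was 5.95 ± 0.58 for *Ucp1* (log2 difference ± SE, n = 11 and 10), 1.67 ± 0.28 for *Cidea*, 1.10 ± 0.19 for *Adipoq* and 2.41 ± 0.30 for *Fabp4*. Since *Ucp1* was above background on 2 of the 10 newborn arrays, its difference rests partly on levels near background: it was 4.53 without background correction and 4.38 in the authors' log2 values, and *Adipoq* moved to 0.55 and 0.50. On each of slides 1 to 6 every untreated kidney of 2 weeks had more *Ucp1* than every untreated kidney of 2 days on that slide. Across slides the ages overlapped in 1 newborn, untreated female 3, whose 10.47 exceeded 3 of the 11 untreated levels of 2 weeks.

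Between 2 weeks and adulthood the 4 genes parted. *Ucp1* was at least 46.5-fold lower in untreated adults than at 2 weeks (n = 10 and 11), a bound set by the lowest signal above background on each adult array. In PDTC males the bound was 43.5-fold (n = 5 and 4). *Cidea* differed by -1.71 ± 0.28 and *Fabp4* by -2.94 ± 0.26 in untreated adults against untreated kidneys of 2 weeks, and *Adipoq* by 0.55 ± 0.15. The sign for *Adipoq* depended on the scale: with each array scaled to 1 median it was -0.11, while the median of all tested probes was -0.57, so that relative to all probes *Adipoq* stood 0.47 higher. The ages lay on separate slides but for 1 array. On slide 8 the single 2-week kidney, untreated male 6, had 11.27 in *Ucp1* and 10.74 in *Fabp4*, against 4.45 to 4.86 and 6.88 to 9.15 in the 5 adults there. With slide as a fixed term, which rests on that 1 array, the differences were -6.26 for *Ucp1*, -2.21 for *Fabp4* and -0.40 for *Cidea*.

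Most tested genes of a list of fat cell identity and lipid storage, called fat cell genes here, were higher at 2 weeks than at 2 days. Of the brown fat programme 2 of 7 tested genes were. The lists used were 19 genes of the brown fat programme, of which 14 are on the array, and 34 genes of fat cell identity and lipid storage, of which 26 are, with the 4 members in neither list. Of these 26 fat cell genes, 13 were above background on all 18 arrays of 2 days and 11 on all 59 arrays, also where *Ucp1* was not. Which cells of the kidney or around it gave these signals was not tested. From 2 days to 2 weeks in untreated kidneys, 15 of 20 tested fat cell genes were higher and 1 lower, with a median difference of 0.70 against -0.01 over all probes, where 37.8% of 13378 probes passed the test (limma, Benjamini-Hochberg adjusted p under 0.05), 16.9% as higher and 20.9% as lower. *Scd*, a fatty acid desaturase, differed by 1.95 ± 0.21 (adjusted p = 2.32e-07), *Car3*, a carbonic anhydrase abundant in fat cells, by 1.81 ± 0.35 (adjusted p = 0.000276), *Lipe*, hormone-sensitive lipase, by 1.36 ± 0.14 (adjusted p = 1.24e-07) and *Cfd*, the secreted protease adipsin, by 1.29 ± 0.19 (adjusted p = 1.11e-05). *Thrsp*, a regulator of lipid synthesis, was not above background on any array of 2 days and at least 9.11-fold higher at 2 weeks (adjusted p = 5.96e-12). The 1 lower gene was *Acly*, ATP citrate lyase, at -0.37 ± 0.07 (adjusted p = 0.000224), named after its value was seen.

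Over all tested probes 16.9% were higher at 2 weeks than at 2 days and 20.9% lower. Of 7 tested genes of the brown fat programme, 2 were higher and 0 lower, with a median difference of 0.16. They were *Cox8b*, a cytochrome oxidase subunit of brown fat and muscle, and *Adrb3*, the beta-3 adrenergic receptor. *Cox8b* was above background on 0 of 18 arrays of 2 days and on all 21 of 2 weeks, and was at least 5.59-fold higher (adjusted p = 7.94e-08), while *Adrb3* differed by 0.38 ± 0.15 (adjusted p = 0.0457). *Cox8b* and *Thrsp* were also not above background on the newborn arrays with the highest *Ucp1*: PDTC female 1, at 10.75 in *Ucp1*, had 5.11 in *Cox8b*, and untreated female 3, at 10.47 in *Ucp1*, had 5.06 in *Cox8b*. *Ppargc1a*, a coactivator of mitochondrial genes that is also active in kidney tubules, was above background on all pup arrays.

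From 2 weeks to adulthood, where 64% of 13114 probes passed the test in untreated kidneys, 31.7% as higher and 32.3% as lower, 3 of 6 brown fat genes were lower and 3 higher. *Cox8b* was at least 3.78-fold lower (adjusted p = 7.99e-08), *Ppargc1a* differed by -1.70 ± 0.28 (adjusted p = 2.33e-05) and *Cpt1b*, the muscle-type carnitine palmitoyltransferase, by -0.70 ± 0.18 (adjusted p = 0.00179). *Dio2*, the deiodinase that activates thyroid hormone, differed by 0.99 ± 0.20 (adjusted p = 0.000247) and *Adrb3* by 0.58 ± 0.23 (adjusted p = 0.0323), and the third higher gene was the uncoupling protein gene *Ucp3* at 0.52 ± 0.20 (adjusted p = 0.0302), named after its value was seen. Of 20 fat cell genes 6 were lower and 4 higher, with a median of 0.03 against 0.00 over all probes. The lower ones included *Thrsp*, at least 6.16-fold lower, *Scd* at -2.71 ± 0.23, *Pparg*, the master regulator of fat cell formation, at least 1.55-fold lower, *Car3* at -1.43 ± 0.25 and *Cfd* at -1.34 ± 0.21, with adjusted p from 1.69e-12 to 4.86e-05. The 4 higher ones, named after their values were seen, were *Pnpla2*, *Me1*, *Cidec* and *Cebpa*, which differed by 1.27, 0.81, 0.67 and 0.54. With slide as a fixed term 2 of these 16 calls in both lists were made, and both were lower genes. With arrays scaled to 1 median the median of the fat cell list was -0.75, which is -0.18 relative to all probes.

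**Figure D2:**
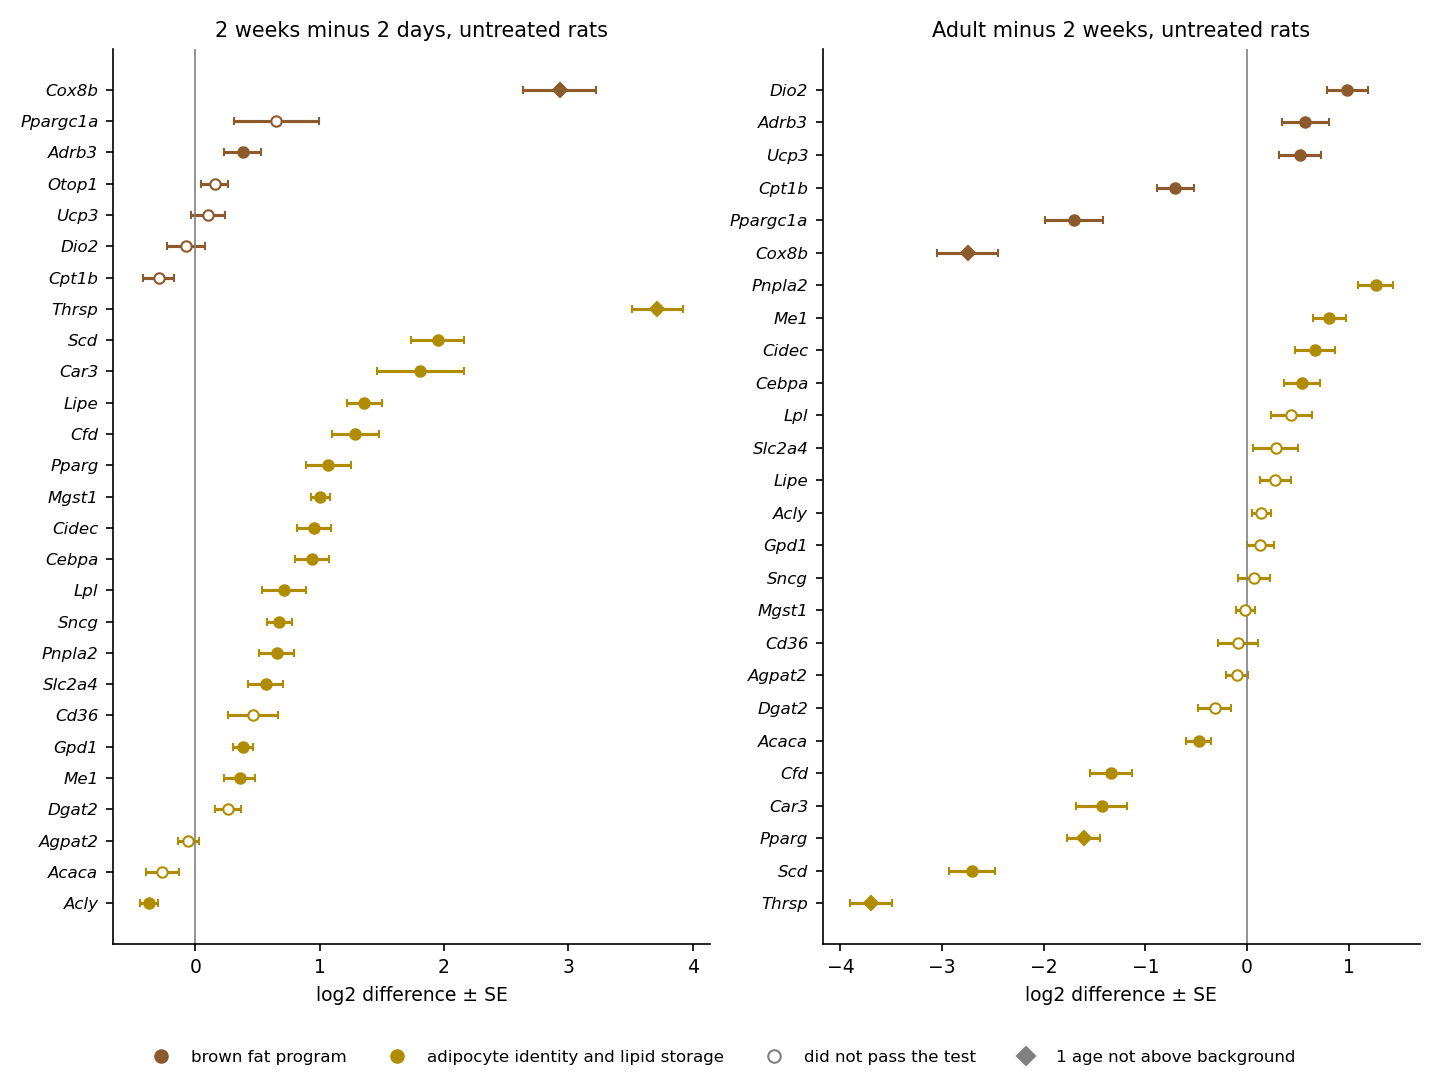
Log2 difference ± SE (horizontal axes) of the listed fat genes other than the 4 members in untreated kidneys, 2 weeks minus 2 days (left) and adult minus 2 weeks (right), with filled points for genes that passed the test, open points for the others, and diamonds for genes not above background on any untreated array of 1 of the ages. 15 of 20 fat cell genes were higher at 2 weeks than at 2 days, and 4 of 20 were higher and 6 lower in adults than at 2 weeks.

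Genes of both fat lists were in part not measurable. Above background on 0 of 59 arrays were 3 of the 14 brown fat genes on the array and 5 of the 26 fat cell genes. Among them, named after their values were seen, were leptin (*Lep*), a hormone of white fat cells, and *Zic1* and *Ebf2*, transcription factors of brown fat. *Pparg* was above background on 9 of 18 arrays of 2 days, 21 of 21 of 2 weeks and 2 of 20 adult arrays.

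The treatments did not separate in the 4 genes at any age. PDTC minus untreated at 2 days was 1.34 ± 0.83 for *Ucp1*, 0.29 ± 0.28 for *Cidea*, 0.39 ± 0.31 for *Adipoq* and 0.63 ± 0.45 for *Fabp4* (n = 8 and 10). At 2 weeks it was -0.60 ± 0.53, -0.36 ± 0.44, -0.14 ± 0.26 and -0.39 ± 0.37 in the same order of genes (n = 10 and 11). In adults it was -0.04 ± 0.27 for *Cidea*, 0.27 ± 0.19 for *Adipoq* and -0.07 ± 0.41 for *Fabp4* (n = 10 each), while *Ucp1*, above background on 1 adult array, was not compared. With arrays scaled to 1 median the adult values of *Cidea* and *Fabp4* turned positive, at 0.07 and 0.13, as *Cidea* did without PDTC male 3, at 0.12, and *Fabp4* without PDTC female 1, at 0.14. Without PDTC female 4 *Adipoq* was 0.11, *Fabp4* -0.39 and *Cidea* -0.13. At 2 days and 2 weeks the scaling moved the median of all probes to 0.12 and 0.13 and left *Ucp1* at 1.23 and -0.60 relative to it. The 4 differences were positive at 2 days and negative at 2 weeks, each of them smaller than 2 SE, and since the genes moved together across arrays the shared sign is not 4 separate observations. For *Ucp1* the difference of the differences, 2 weeks minus 2 days, was -1.93 ± 1.0.

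In the authors' log2 values the 2-day differences were smaller, at 0.80 for *Ucp1*, 0.19 for *Cidea* and 0.19 for *Adipoq*, and with scaling *Cidea* was 0.48. Single arrays set much of these sizes. Without PDTC female 1 the 2-day difference was 0.89 in *Ucp1*, 0.11 in *Cidea* and 0.16 in *Adipoq*, and without PDTC male 1 it was 0.31 in *Fabp4*. Without untreated female 3 and PDTC female 1 together it was 1.46 in *Ucp1*. Without slide 5 the 2-week difference was -1.02 in *Ucp1*, -0.73 in *Cidea*, -0.50 in *Adipoq* and -0.75 in *Fabp4*. Without PDTC male 4 alone it was -0.99, -0.69, -0.37 and -0.69 in the same order of genes. Without PDTC male 3 the 2-week difference of *Adipoq* lost its negative sign, at 0.001. Within slides, *Ucp1* in PDTC kidneys was higher on 2 and lower on 3 of 5 slides at 2 days, with differences between -1.35 and 6.08, and higher on 2 and lower on 4 of 6 slides at 2 weeks, with differences between -2.23 and 0.77.

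No gene of either fat list passed the test between PDTC and untreated kidneys at any age, where 0% of 13163 probes at 2 days, 0% of 13360 at 2 weeks and 0% of 11701 in adults did so in limma. At an unadjusted p under 0.05 there were 2085, 697 and 668 such probes. The count at 2 days turned on single rats, since without untreated male 4 it was 258 probes and 1 fat list gene, and without PDTC male 4 it was 36 probes. The medians of the brown fat list were -0.05, -0.00 and 0.00, and those of the fat cell list 0.04, -0.06 and -0.02, at 2 days, 2 weeks and in adults. The smallest p in the lists at 2 days was that of *Ppargc1a*, at 0.92 ± 0.30 (adjusted p = 0.170, limma). At 2 weeks it was that of *Sncg*, gamma-synuclein, which white fat cells and neurons make, at -0.27 ± 0.10 (adjusted p = 0.825), and in adults again that of *Ppargc1a*, at 0.79 ± 0.29 (adjusted p = 0.799).

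Across single pup arrays the 4 genes rose and fell together. Among adults, where *Ucp1* was above background on 1 array, 1 of its 3 highest arrays was among the 3 highest in each other gene. At 2 days the 6 arrays above background in *Ucp1*, namely PDTC female 1, untreated female 3, PDTC female 2, PDTC female 3, PDTC male 1 and untreated male 2 in falling order, were also the 6 highest in *Cidea* and the 6 highest in *Fabp4*, and held 5 of the 6 highest in *Adipoq*. At 2 weeks the 3 highest arrays in each of the 4 genes were untreated male 4, PDTC male 4 and PDTC female 5. All 3 lay on slide 5, which carried 4 kidneys of this age, the other one being untreated female 4 at 11.13 in *Ucp1*, the median of its treatment. Kidneys of both treatments and both sexes were among the high arrays at 2 days, and kidneys of both treatments and both sexes at 2 weeks.

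**Figure D3:**
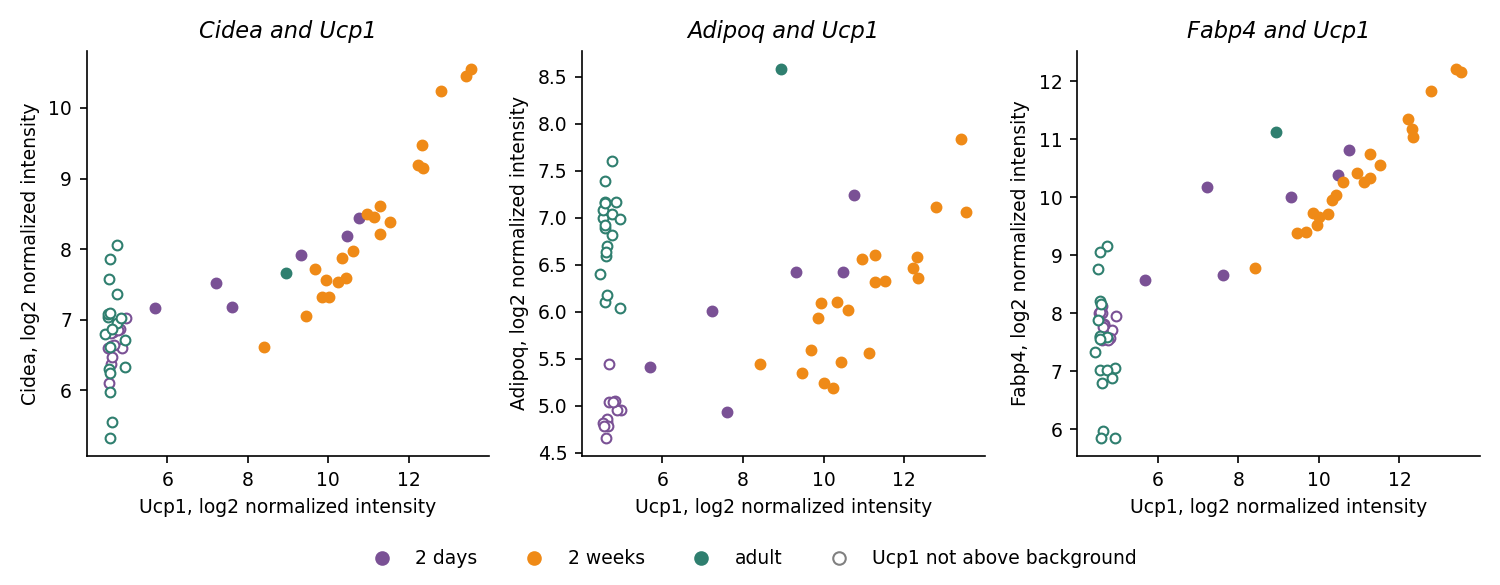
Log2 normalized intensity of *Cidea*, *Adipoq* and *Fabp4* (vertical axes) against that of *Ucp1* (horizontal axes), 1 point per array, coloured by age, with open points where *Ucp1* was not above background. The points are levels with no group mean taken off. With the mean of each group taken off, r with *Ucp1* at 2 weeks was 0.974 for *Cidea*, 0.984 for *Fabp4* and 0.828 for *Adipoq* (n = 21).

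Correlations between members were computed after the mean of each group of age, sex and treatment was taken off. Over the 21 arrays of 2 weeks Pearson's r of *Ucp1* was 0.984 with *Fabp4* (Spearman's rho 0.975), 0.974 with *Cidea* (rho 0.961) and 0.828 with *Adipoq* (rho 0.664). Without the 2 arrays farthest from the median of *Ucp1* it was 0.977, 0.962 and 0.683. *Cidea* and *Fabp4* had r = 0.970. These points share the normalization and, in part, the slide. In adults, where *Ucp1* was above background on 1 array, *Cidea* and *Fabp4* had r = 0.636 (rho 0.719, n = 20) and *Adipoq* and *Fabp4* 0.710 (rho 0.522), and the second fell to 0.377 without the 2 arrays farthest from the median of *Adipoq*. *Cidea* and *Adipoq* had r = 0.616 in adults (rho 0.755).

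*Ucp1* also varied between kidneys on the same slide at 2 weeks. On slide 5 *Ucp1* was 13.41 in PDTC male 4 and 12.79 in PDTC female 5, against 13.54 in untreated male 4 and 11.13 in untreated female 4. On slide 2 it was 8.41 in PDTC female 2, against 10.33 in untreated female 2 and 10.96 in untreated male 1. On slide 4 it was 9.68 in PDTC male 3 and 10.01 in PDTC female 4, against 12.22 in untreated female 3 and 10.60 in untreated male 3.

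**Figure D4:**
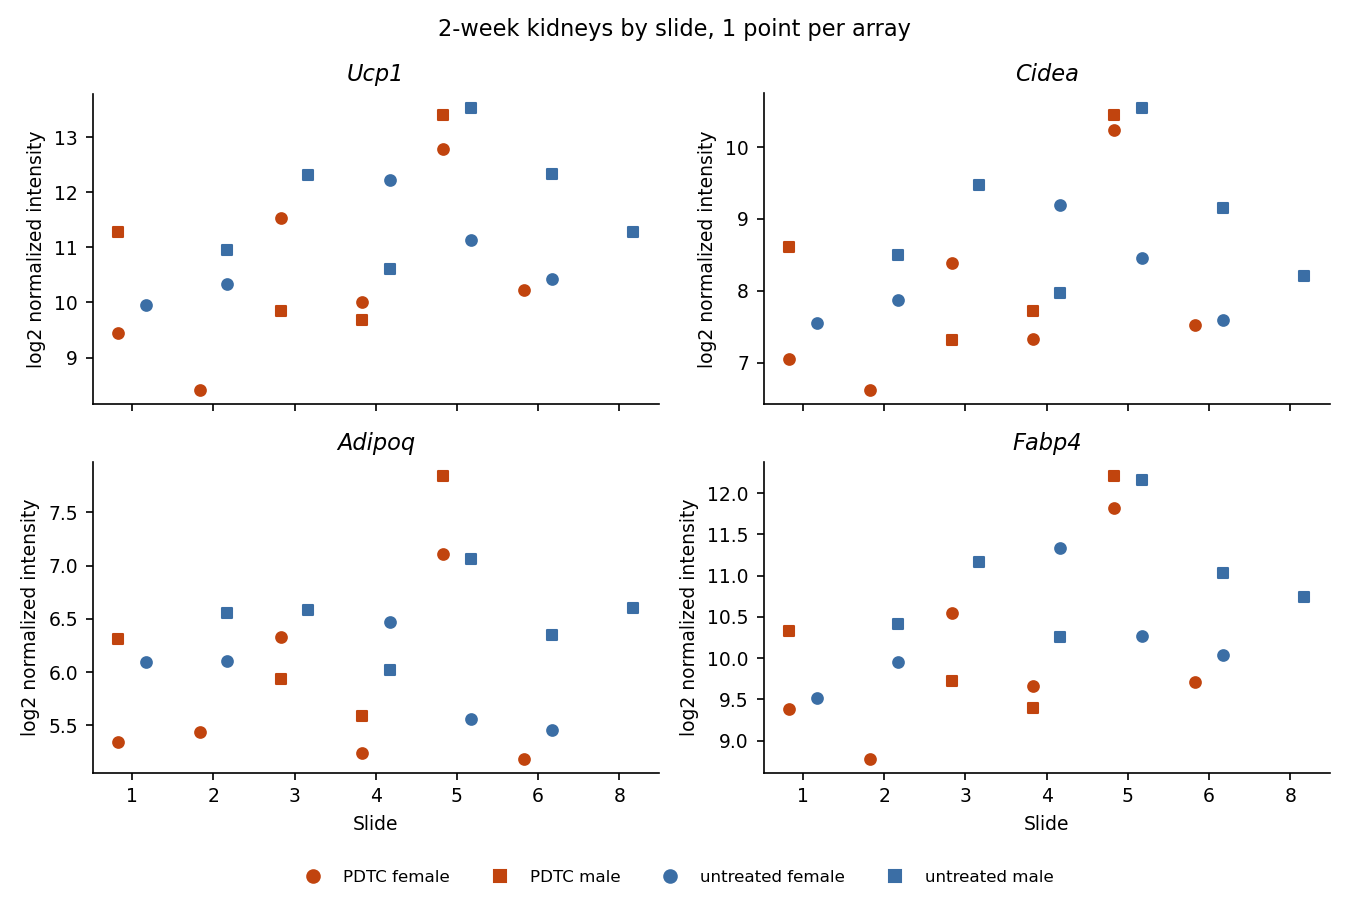
Log2 normalized intensity of the 4 genes (vertical axes) in kidneys of 2 weeks by slide (horizontal axes), 1 point per array, PDTC in orange left of untreated in blue, females as circles and males as squares. The 3 highest arrays in each gene lay on slide 5, and PDTC kidneys had the lower mean *Ucp1* on 4 of the 6 slides that held both treatments.

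Levels of the members were also compared with the whole array after the mean of each of the 12 groups was taken off. The named genes closest to each member were mostly other members or genes of the fat lists. Over 59 arrays the 5 named genes closest to *Ucp1* were *Fabp4* (r = 0.859), *Adipoq* (0.853), *Car3* (0.813), *Cidea* (0.776) and *Pparg* (0.766). Closest to *Cidea* were *Rbp7*, a retinol binding protein (0.820), *Fabp4* (0.818), *Cox8b* (0.798), *Gpihbp1*, which anchors lipoprotein lipase on capillary endothelium (0.795), and *Adipoq* (0.795). Closest to *Adipoq* were *Ucp1*, *Pparg* (0.852), *Fabp4* (0.823), *Lipe* (0.803) and *Cidea*, and closest to *Fabp4* were *Ucp1*, *Adipoq*, *Pparg* (0.821), *Cidea* and *Cfd* (0.779). The members were chosen by their levels on these same arrays, so their closeness to each other is a description and not a finding. These values rest on few arrays with high levels, and at low levels on signals near background.

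Several of the high arrays also ranked high in other fat genes, and not all did. Adult PDTC female 4 was the highest adult in 11 of the 27 listed fat genes above background on any adult array, among the 3 highest in 15, and the highest in *Ucp1*, *Adipoq* (8.58) and *Fabp4* (11.13), but not in *Cidea* (7.66). Its *Scd* was 11.84, against at most 6.95 in the other adults, its *Cfd* 11.71, against at most 8.50, and its *Thrsp* 10.18, against at most 5.59. It was the only adult above background in *Cox8b* (7.43) and in *Thrsp*. At 2 days PDTC female 1 was highest in 12 of 29 such genes and among the 3 highest in 16, untreated female 3 in 2 and 14, PDTC male 1 in 2 and 9, and PDTC female 2, at 9.32 in *Ucp1*, in 1 and 4. At 2 weeks PDTC male 4 was highest in 10 of 30 and among the 3 highest in 20, untreated male 4 in 7 and 18, and PDTC female 5 in 1 and 14, against 5 and 10 for untreated male 6, whose *Ucp1* was 11.27.

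Females and males were compared with a test, whose p-values for the members are not free of the choice by levels on single arrays. In adults *Fabp4* was higher in females. It was 6.88, 9.06, 7.55, 11.13 and 8.16 in PDTC females 1 to 5 and 9.15, 7.88, 8.21, 8.76 and 7.61 in untreated females, against 7.59, 7.02, 5.85, 5.85 and 6.80 in PDTC males 1 to 5 and 7.33, 7.03, 5.97, 7.05 and 7.59 in untreated males. Untreated females lay above untreated males without overlap, by the narrow margin between 7.61 and 7.59, and in PDTC kidneys the sexes overlapped. The difference of females minus males was 1.63 ± 0.41, a 3.10-fold higher level (adjusted p = 0.0327, limma, n = 10 each), where 2.69% of 11701 probes passed the test, 1.45% as higher and 1.24% as lower. The call was near the threshold: it was lost in 7 of 20 fits that left out 1 rat (untreated males 2 and 3, untreated females 1 and 4, PDTC males 3 and 4, PDTC female 2), with adjusted p between 0.0108 and 0.0682, with slide as a fixed term (1.60, adjusted p = 0.0644), with arrays scaled to 1 median (1.36, adjusted p = 0.152), without the filter on dim probes (adjusted p = 0.0845) and in untreated rats only (1.33, adjusted p = 0.111). Without PDTC female 4 it was 1.31 (adjusted p = 0.0240, limma). Within slides 7 to 10 the difference was 0.98, 0.71, 2.51 and 2.19.

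*Adipoq* in adults was 7.27 ± 0.53 in females and 6.57 ± 0.37 in males (mean ± SD, n = 10 each), a difference of 0.70 ± 0.19 that missed the threshold (adjusted p = 0.0533, limma). Untreated females, at 7.0 to 7.60, did not overlap untreated males, at 6.04 to 6.89, while PDTC females, at 6.64 to 8.58, overlapped PDTC males, at 6.60 to 7.04. Without PDTC female 4 the *Adipoq* difference was 0.54 and passed the test (adjusted p = 0.0330, range over all 20 such fits 0.0236 to 0.102). *Cidea* differed by 0.68 ± 0.27 (adjusted p = 0.242), and *Ucp1* was not tested in adults. Of the fat lists, *Gpd1*, glycerol-3-phosphate dehydrogenase, passed the test, at 0.73 ± 0.15 (adjusted p = 0.00795), 1 of 17 fat cell genes, and 0 of 5 brown fat genes did, with medians of 0.23 and 0.10 against 0.01 over all probes. With arrays scaled to 1 median 0 genes of the fat lists passed, *Gpd1* included.

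**Figure D5:**
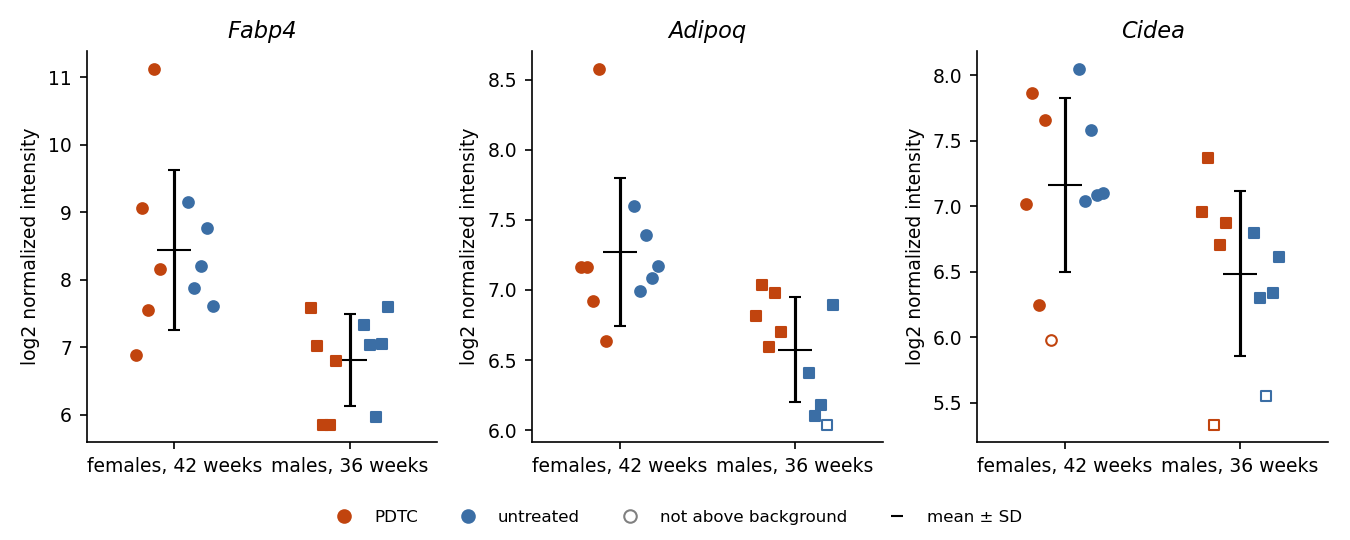
Log2 normalized intensity (vertical axes) of *Fabp4*, *Adipoq* and *Cidea* in adult kidneys, females left of males, PDTC in orange and untreated in blue, with 1 point per array, open points not above background, and bars for the mean ± SD of 10 arrays. *Fabp4* was 1.63 higher in females on the log2 scale, a call lost under several alternatives, and PDTC female 4 had the highest *Fabp4*, at 11.13, and *Adipoq*, at 8.58.

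In pups no member passed the test between the sexes, where 0% of 13163 probes at 2 days and 0% of 13360 at 2 weeks did so in limma (151 and 159 at an unadjusted p under 0.05). At 2 days *Ucp1* differed by 1.88 ± 0.83, with 6.86 ± 2.69 in females and 5.07 ± 0.88 in males (mean ± SD, n = 9 each, adjusted p = 1), and the difference was 0.86 without untreated female 3 and PDTC female 1. At 2 weeks the 4 differences were negative, between -0.84 ± 0.53 for *Ucp1* and -0.59 ± 0.37 for *Fabp4*, with an adjusted p of 0.9998 for each. Without PDTC male 4 they were -0.45 for *Ucp1*, -0.43 for *Cidea*, -0.38 for *Adipoq* and -0.29 for *Fabp4*, and without slide 5 -0.55 for *Ucp1* and -0.36 for *Fabp4*. The fat cell list had 17 of 19 positive differences at 2 days and 20 of 21 negative ones at 2 weeks, none called. Its medians were 0.06 and -0.17, against 0.00 and 0.01 over all probes. The brown fat list had 0 of 5 positive differences at 2 days (median -0.04) and 7 of 8 negative ones at 2 weeks (median -0.16). Genes of a list were measured on the same arrays, so their signs are not separate observations.

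Markers of other cells around or in the kidney were measured beside these results. Summed normalized intensities of 10 adrenal cortex genes, 5 of them above background on any array, were 346 to 398 in PDTC and 333 to 407 in untreated kidneys of 2 weeks, and 305 to 503 in PDTC and 321 to 502 in untreated adults. For 10 skeletal muscle genes, 6 above background on any array, the sums were 323 to 395 in PDTC and 328 to 441 in untreated kidneys of 2 weeks. The muscle sums were 342 to 503 in PDTC and 375 to 548 in untreated adults. Genes not above background add to each of these sums, so the sums say little about small amounts of such tissue. For 7 genes of adrenal medulla and sympathetic nerve, 5 above background on any array, the sums were 273 to 345 in PDTC and 258 to 446 in untreated kidneys of 2 weeks, against 387 to 488 in PDTC and 424 to 605 in untreated kidneys of 2 days. For 10 genes of capillary endothelium, a cell type that makes *Fabp4* too, the sums were 9469 to 11766 in PDTC and 9201 to 12433 in untreated kidneys of 2 weeks, and 6262 to 8843 in PDTC and 6176 to 8610 in untreated adults. In untreated kidneys 7 of 8 tested endothelial genes were lower and 1, *Vwf*, higher in adults than at 2 weeks. Over all probes 32.3% were lower and 31.7% higher there, and these ages lay on separate slides but for 1 array. *Vwf* differed by 1.18 ± 0.19 between adult females and males (adjusted p = 0.000844, limma), where 2.69% of 11701 probes passed the test. For 5 macrophage genes, cells that make *Fabp4* as well, the sums were 391 to 1829 in PDTC and 292 to 1418 in untreated adults, against 342 to 441 in PDTC and 219 to 448 in untreated kidneys of 2 weeks. Between the adult sexes the endothelial sums were 6262 to 8843 in females and 6176 to 8682 in males, and the macrophage sums 292 to 1829 in females and 377 to 1418 in males. The part of endothelium and macrophages in the levels of *Fabp4* was not tested.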

How the data were processed

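The authors' deposited table of intensity values holds the mean bead signal of each probe on each array before normalization, with a detection p-value beside each signal per the file headers, and the authors' value table gives deposited log2 values whose ranks within arrays equalled those of the signals. Per the labels' protocols, RNA was amplified with an Illumina TotalPrep kit and hybridised to RatRef-12 arrays by a service provider. The labels name no scanner software. The detection p-value was two-sided by its values: on each array 18.5% to 27.2% of probes had a p under 0.05 with a signal below background.

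The background level of an array was therefore set at the median over the 50 probes of highest p, with an SD from the signals below it. Signals were corrected by normexp, 16 was added, the 59 arrays were quantile-normalized and log2 was taken. Background levels were 59.9 to 137 and median signals 67.8 to 203. The number of arrays limits the precision, and levels near background have little of it. A probe was above background at a one-sided normal p under 0.05 and entered a fit if this held for at least 4 of the fit's arrays. Tests used limma 3.58.1 in R 4.3.3 (lmFit, eBayes, group means, Benjamini-Hochberg over all tested probes, threshold 0.05), checked on simulated data. Each age had its own fit; the age comparisons used the untreated groups, and the sex comparisons averaged the differences within both treatments. A fold against a group not above background on any array was taken against the higher of the probe's signal and the array's lowest signal above background, and given as "at least".

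Of 22523 probes 13793 had 1 gene symbol, 0 several and 8730 none, and where a gene had several probes the one of highest mean level stood for it. Gene IDs were looked up in RefSeq's GRCr8 gene table, and 0 symbols changed. No 2 arrays held the same values. Arrays were grouped by the labels, and rats were numbered within groups in accession order. The members, lists and tests were chosen with earlier results of these data known. Apart from the members, the text names per list and comparison up to 5 called genes with the largest difference, or the smallest p where none was called, and for each member the 5 named genes with the highest correlation. Genes named by LOC or RGD and digits were not named. Alternatives were no background correction, scaling to 1 median, no filter, the authors' log2 values, slide as a fixed or random term, untreated rats only (sexes) and the omission of single arrays. Fits chosen after seeing the data were those without untreated female 3 and PDTC female 1 of 2 days and without slide 5.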

Additional observations from a re-analysis of the deposited data

Results flagged for a closer look

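Arrays are listed here whose gap to the nearest of their group, divided by the group's range, exceeded Dixon's critical value, which served only as a rule for what to show and not as a test, since levels on single arrays helped to choose the genes. In groups of 4 to 6 rats 9 of 45 combinations of gene and group met it. Chance flags about 1 in 20 groups, a rate the 9 cannot be read against, since the 4 genes move together and the other *Ucp1* levels beside the listed ones were not above background. They lay on 4 arrays of 2 days or adulthood, and each was high. At 2 days PDTC male 1 had 7.22 in *Ucp1*, against at most 4.83 in the other PDTC males, and 10.17 in *Fabp4*, against at most 7.76. Untreated female 3 of 2 days stood apart in all 4 genes: 10.47 in *Ucp1*, against at most 4.98 in the other untreated females, 8.19 in *Cidea*, against at most 7.02, 6.42 in *Adipoq*, against at most 5.04, and 10.38 in *Fabp4*, against at most 8.0. Untreated male 2 of 2 days had 5.69 in *Ucp1*, against at most 4.67 in the other untreated males. Adult PDTC female 4 had 8.94 in *Ucp1*, against at most 4.86 in the other PDTC females, and 8.58 in *Adipoq*, against at most 7.16.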

How the results depend on the processing

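The *Fabp4* difference between adult sexes, the 1 call among the members, kept its sign under every alternative. Among differences given without a test, with scaling *Adipoq* in adults against 2 weeks was -0.11, against 0.55, and the median of the fat cell list -0.75, against 0.03. Called probes between adult females and males were 122 with arrays scaled to 1 median and 136 in untreated rats only, against 315, and fat list genes called were 0 with scaling, against 1. Scaling gave 2722 called probes between 2 weeks and 2 days, against 5059. With slide as a fixed term, adults against 2 weeks, which then rest on slide 8 alone, had 715 called probes and 2 fat list genes, against 8393 and 16. Without untreated female 3 and PDTC female 1 of 2 days, an alternative chosen after seeing the data, PDTC at 2 days had 1 called probe, against 0. Leaving out 1 rat gave 0 to 258 called probes for PDTC at 2 days (258 without untreated male 4, 36 without PDTC male 4, 1 without untreated female 3) and 0 to 1 fat list genes, 250 to 393 and 1 to 3 for adult sexes, 4722 to 5796 and 16 to 20 for 2 weeks against 2 days, 8005 to 8743 and 14 to 17 for adults against 2 weeks, and 0 to 1 called probes for the difference of PDTC effects. The cause was not tested. The *Fabp4* call between adult sexes was kept with the authors' log2 values (1.15, adjusted p = 0.0344). *Adipoq* passed with slide as a random block (adjusted p = 0.0491) and in untreated rats only (0.93, adjusted p = 0.0494). No paired analysis was made, since each array was a different rat and the labels do not say which rats were littermates. Signals near background limit *Ucp1* and *Adipoq* at 2 days and *Ucp1* in adults.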
